A study of Homo sapiens with 18 samples.

Results

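The 41 genes described here build the contractile apparatus and the excitation machinery of heart muscle, and their levels were followed in foregut endoderm differentiated from H1, an established wild-type line of human embryonic stem cells. They were chosen by symbol from the 34989 named genes of the count table, and all 41 were found there. In heart muscle, myosin heavy and light chains form the thick filament, actin with its troponins forms the thin filament, and titin, myosin-binding protein and M-band and Z-disc proteins hold the filaments in register. Contraction follows calcium entry through voltage-gated channels and calcium release from an internal store that a calcium pump refills, and cardiomyocytes also secrete natriuretic peptides. Foregut endoderm, the epithelium that gives rise to lung, liver and pancreas, lies next to heart-forming mesoderm in the embryo and is itself not contractile.

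Bulk RNA-seq had been made in 18 libraries, 3 per group. RA-CHIR-BMP4 day 9 libraries came from cells given 2 µM all-trans retinoic acid (RA), a morphogen derived from vitamin A, for 24 h up to day 6. They then had 2 µM CHIR99021, a GSK3 inhibitor that activates Wnt signalling, with 50 ng/mL BMP4 for 72 h up to day 9. RA day 9 libraries had the RA step alone, CHIR-BMP4 day 9 libraries the second step alone, and untreated day 9 libraries neither. RA day 6 libraries were taken at the end of the RA step and untreated day 6 libraries at the same day without it. By its labels, the study addressed how RA patterns foregut endoderm, with CHIR99021 and BMP4 standing in for signals that induce the respiratory lineage. Whether replicates were separate cultures is not stated by the labels, and p-values therefore measure the spread between libraries, which may be technical.

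Totals ran from 5.79 to 25.37 M counts (M for 1e+06) per library. Levels of 1 gene across libraries are given as counts per 1e+06 (CPM) after library scaling, in replicate order 1 to 3, and levels of different genes as transcripts per 1e+06 (TPM), which allow for gene length. Differences are log2 fold changes ± standard error (SE) from edgeR's quasi-likelihood test, and a gene was called when its p-value, adjusted by Benjamini-Hochberg over the 15531 genes tested, was below 0.05. Of the 41 genes, 38 were abundant enough to be tested, but 12 of these passed the abundance filter only through the RA day 9 libraries and so had to differ, which leaves 26. The 12 are MYH7, MYBPC3, SMYD1, UNC45B, HSPB7, LDB3, MYOZ2, CSRP3, DES, PLN, SLN and NPPA. Their main-fit differences between RA day 9 and another group are therefore given without p-values. In bulk RNA, fewer cells of a type and less RNA per cell cannot be told apart. The heart muscle markers MYH6, MYL7 and MYBPC3 were high in RA day 9 libraries, and reads of all 12 endoderm genes looked at (such as SOX17, FOXA2 and EPCAM) were present in every group.

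Some libraries also stood apart in the kind of reads they held. Between the treated libraries and a set of the 3 untreated day 9 libraries with untreated day 6 replicate 2, 141 genes were at least 10-fold apart without overlap. Of these, 109 are annotated pseudogenes, 58 higher in the treated libraries and 51 in the untreated set. A score built on those pseudogenes, scaled to 0 for the treated libraries and 1 for the untreated set, was -0.0141 to 0.0161 in treated libraries, 0.973 to 1.02 in untreated day 9 libraries and 0.700, 0.996 and 0.588 in untreated day 6 replicates 1, 2 and 3. Comparisons between treated groups are therefore given first, and those with untreated libraries are given also with the score as a covariate.

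At day 9 after RA alone, the heart muscle genes as a sum, and most of them singly, stood above every other condition. The summed level of the 41 genes was 503, 516 and 523 CPM in RA-CHIR-BMP4 day 9 libraries, 8484, 7498 and 9464 CPM in RA day 9, 569.8, 588 and 546 CPM in CHIR-BMP4 day 9 and 999, 963 and 975 CPM in untreated day 9 libraries. At day 6 the sum was 1089, 1255 and 1264 CPM after RA and 1669, 1422 and 1340 CPM in untreated libraries. ACTC1, ANKRD1 and MYH6 alone held 63.7, 63.5 and 64.5% of the sum in RA day 9 libraries, so the sum mostly follows these genes. The mean was highest in RA day 9 libraries for 34 of the 41 genes, including the 12 that passed the filter only through them. The share over all genes was not computed. For 30 of the 41, all 3 RA day 9 libraries lay above all 15 other libraries, and 17 of these were among the 26 that pass the filter without RA day 9, against 13.6% of the 15337 genes that pass it. Of the 38 tested genes this held for 29, against 14.2% of all tested genes. Among the 30, the RA day 9 mean was at least 10-fold that of the next group for 18 genes and under 2-fold for 1, ATP2A2. Of the 18, MYH6, MYL4, MYL7, ACTC1, ACTN2, TNNI1, MYOM1 and XIRP1 pass the filter without RA day 9. The others passed only through those libraries and add no support. Replicate 2 was the lowest RA day 9 library for 23 of the 30 genes, and replicate 1 the highest for 18.

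**Figure D1:**
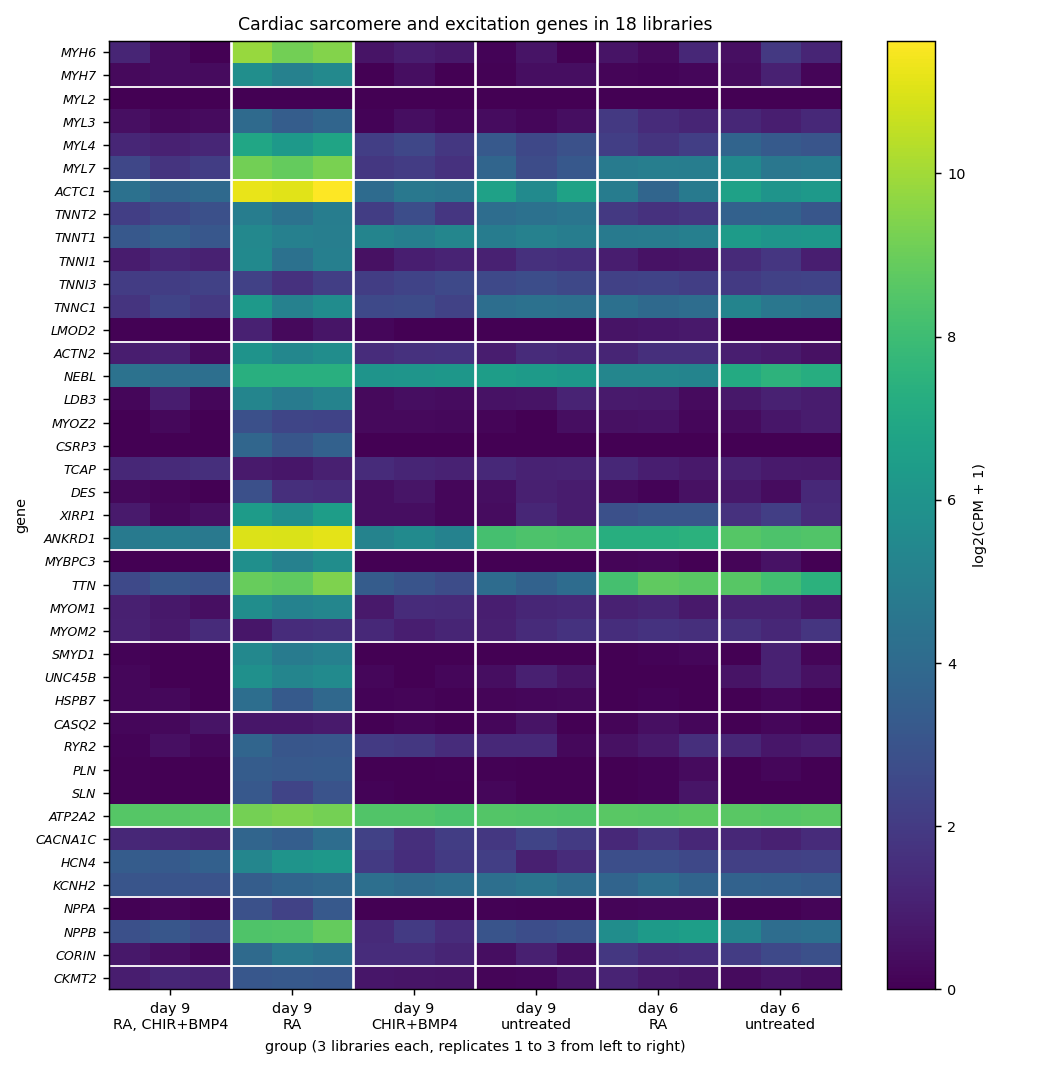
Levels of the 41 genes (rows, grouped by role) in the 18 libraries (columns, grouped by condition), coloured by log2(CPM + 1), with brighter colours for higher levels. The 3 RA day 9 columns are the brightest in most rows, while TNNT1, KCNH2, ATP2A2, TTN and NEBL are also bright in other groups and MYL2 is at 0 throughout.

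CHIR99021 and BMP4 after RA, compared with RA alone at day 9, were followed by lower levels of 23 and a higher level of 1 (TCAP) of the 26 genes that pass the filter without RA day 9 libraries. Among the 15337 genes that pass it, 31.7% were called lower and 32.5% higher. The median log2 fold change over the 26 was -5.07, and 0.03 over those 15337. Between RA day 9 and RA day 6 libraries, 21 of the 26 rose and 0 fell, against 27.9% called higher and 30.7% called lower, with a median of 3.24 over the 26 and -0.04 over all. No gene of the 26 was lower there at an unadjusted p below 0.05 in edgeR, and DESeq2 and limma on log2 TPM also called 0 of them lower. Over the 38, 35 fell and 1 rose in the first comparison (32.3% of all tested genes called lower, 32.1% higher) and 33 rose in the second (28.5% called higher, 30.3% lower), but the 12 that passed only through RA day 9 add no support. With the read-kind score as a covariate, the same 36 and 33 genes were called, among 65.1% and 59.7% of all tested genes called in either direction. The score hardly differs between treated libraries, so that fit could change little here and adds no support. By role, the genes among the 26 that fell with CHIR99021 and BMP4 after RA were 1 of 1 heavy chain, 3 of 3 light chains, 5 of 6 thin filament genes and 2 of 3 thick filament and M-band genes. They were also 4 of 5 Z-disc genes, 2 of 2 calcium store genes, 3 of 3 channels, 2 of 2 peptide genes and the creatine kinase, while no chaperone or assembly gene is among the 26.

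**Figure D2:**
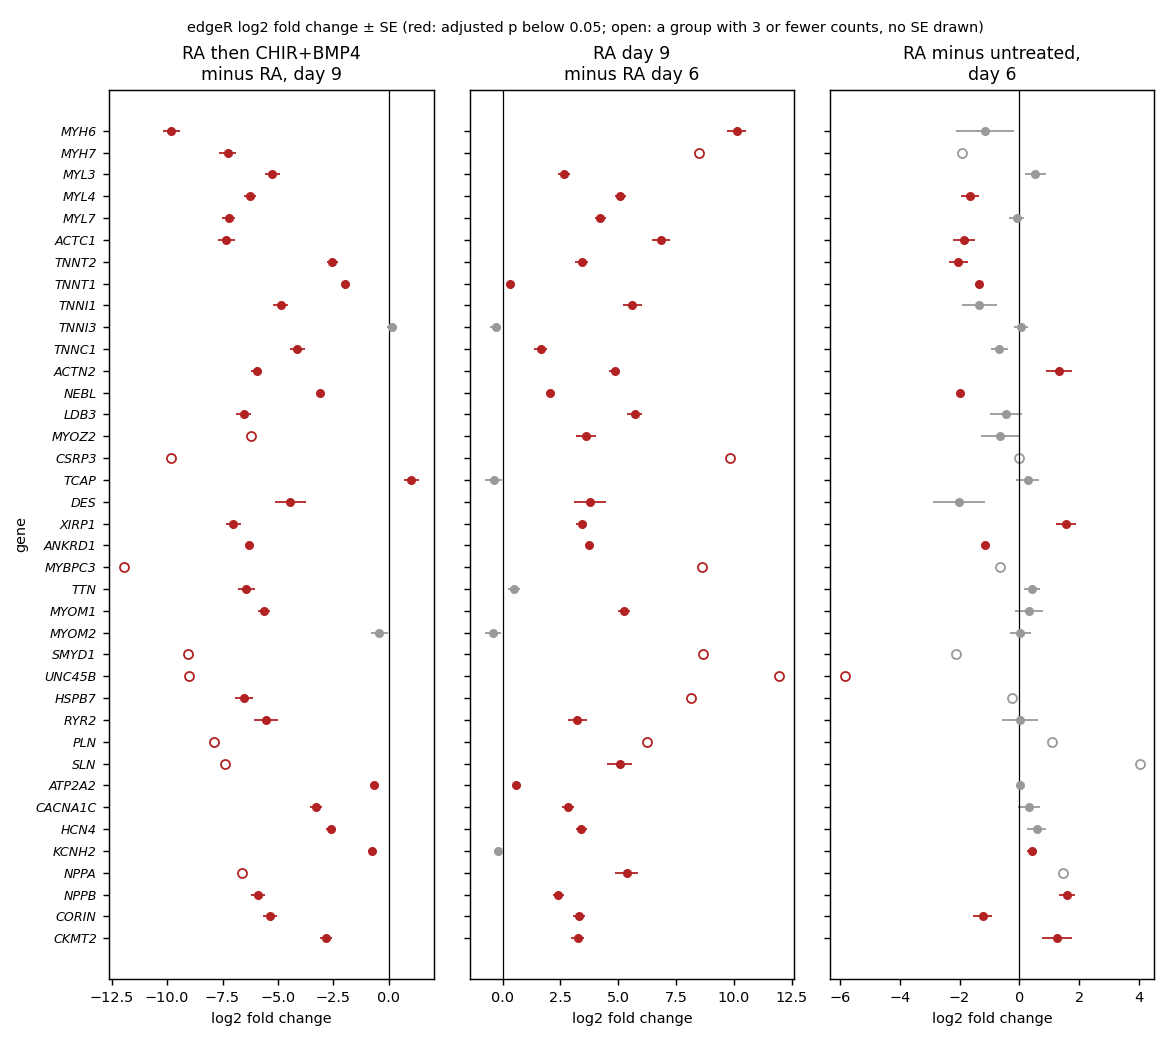
Log2 fold change ± SE of the 38 tested genes in 3 comparisons (RA-CHIR-BMP4 minus RA day 9, RA day 9 minus RA day 6, RA minus untreated day 6), with red points at adjusted p below 0.05 and open points where a group had at most 3 counts. In the first comparison nearly all points lie left of 0, in the second right of 0, and in the third they lie on both sides.

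The promoters of 4 genes are printed because they belong to genes the results turn on: MYH6, MYL7 and MYBPC3, which mark heart muscle, and TTN, whose RA day 6 and RA day 9 libraries overlapped. Each sequence holds the 250 bases before the RefSeq transcript start (GRCh38.p14), and capitals mark motif matches on either strand. The motifs searched were the MEF2 site and the CArG box (bound by SRF) by name, AGATAA for GATA factors, CATTCC for TEAD factors and TATAAA for the TATA box. No 2 matches overlap in these 4.
MYH6 promoter, chr14:23408274-23408523, minus strand: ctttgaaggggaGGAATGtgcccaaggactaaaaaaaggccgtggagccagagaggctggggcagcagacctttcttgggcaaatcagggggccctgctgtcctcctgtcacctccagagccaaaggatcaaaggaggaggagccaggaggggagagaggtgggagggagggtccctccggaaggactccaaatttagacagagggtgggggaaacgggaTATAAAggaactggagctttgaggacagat
MYL7 promoter, chr7:44141333-44141582, minus strand: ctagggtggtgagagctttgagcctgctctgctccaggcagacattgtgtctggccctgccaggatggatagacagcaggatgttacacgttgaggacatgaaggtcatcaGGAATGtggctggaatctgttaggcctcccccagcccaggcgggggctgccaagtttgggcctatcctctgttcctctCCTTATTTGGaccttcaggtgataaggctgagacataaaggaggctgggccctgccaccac
MYBPC3 promoter, chr11:47352703-47352952, minus strand: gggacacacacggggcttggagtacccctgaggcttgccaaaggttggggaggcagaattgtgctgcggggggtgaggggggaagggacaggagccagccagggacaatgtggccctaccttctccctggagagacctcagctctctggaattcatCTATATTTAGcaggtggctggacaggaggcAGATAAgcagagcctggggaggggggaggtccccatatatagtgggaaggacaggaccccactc
TTN promoter, chr2:178807424-178807673, minus strand: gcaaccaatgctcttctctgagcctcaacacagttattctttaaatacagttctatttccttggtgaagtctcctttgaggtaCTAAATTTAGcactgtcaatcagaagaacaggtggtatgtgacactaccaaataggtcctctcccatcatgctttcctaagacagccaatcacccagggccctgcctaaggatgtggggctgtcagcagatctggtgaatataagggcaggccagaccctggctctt

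In the MYH6 promoter, CATTCC lay 238 to 233 bases before the start, read on the opposite strand, and TATAAA 30 to 25 bases before it. The MYL7 promoter held a CArG box 61 to 52 bases before the start and CATTCC, on the opposite strand, at 139 to 134. The MYBPC3 promoter held a MEF2 site at 94 to 85 and AGATAA at 64 to 59, and the TTN promoter a MEF2 site at 167 to 158. RefSeq windows were at hand for 29 of the 41 genes. A MEF2 site was found in 4 of the 29 (HSPB7, MYBPC3, MYOZ2 and TTN) and in 0.641% of the 27305 genes with a window. A CArG box was found in 4 (ACTC1, LDB3, MYL7 and MYOM1), against 1.44% of all genes. AGATAA was found in 9, against 11.1%, CATTCC in 7, against 14.3%, and TATAAA in 8, against 13.0%. A match describes letters in this window and was not read as a bound site.

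Both myosin heavy chains, the motor proteins of the thick filament, were near background outside RA day 9 libraries. MYH6 stood at 1.34, 0.301 and 0 CPM in RA-CHIR-BMP4 day 9 libraries, 905, 566 and 699 CPM in RA day 9, 0.507, 0.887 and 0.674 CPM in CHIR-BMP4 day 9 and 0.0804, 0.511 and 0 CPM in untreated day 9 libraries. At day 6, MYH6 stood at 0.552, 0.245 and 1.42 CPM after RA and 0.402, 2.87 and 1.29 CPM in untreated libraries. MYH6, the fast alpha chain of atrium and developing heart, was thus high in the 3 RA day 9 libraries alone and at or below 2.87 CPM in the 15 others. MYH6 fell by 9.80 ± 0.39 (log2 ± SE, adjusted p = 3.7e-11) in RA-CHIR-BMP4 against RA day 9 and rose by 10.12 ± 0.41 (adjusted p = 6.3e-11) in RA day 9 against RA day 6 libraries. Without RA-CHIR-BMP4 replicate 1, which held most of that group's few MYH6 reads, the first value was -11.92, and without RA day 6 replicate 3 the second was 10.86. MYH7 stood at 0.239, 0.301 and 0.276 CPM in RA-CHIR-BMP4 day 9 libraries, 51.8, 33.2 and 43.0 CPM in RA day 9, 0, 0.333 and 0 CPM in CHIR-BMP4 day 9 and 0.0402, 0.340 and 0.346 CPM in untreated day 9 libraries. At day 6, MYH7 stood at 0.110, 0.0818 and 0.142 CPM after RA and 0.268, 1.11 and 0.107 CPM in untreated libraries. MYH7, the slow beta chain of ventricle and slow skeletal muscle, was likewise high in RA day 9 libraries alone. MYH7 fell by 7.27 ± 0.39 in RA-CHIR-BMP4 relative to RA day 9 libraries. With 1028 counts in RA day 9 against 3 in RA day 6 libraries, it was 392-fold higher (95% counting interval 134 to 1902) in RA day 9. Counting intervals here and below cover counting error only, and reads of these near-identical paralogs may have been split between them.

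All 3 light chains that had reads, small proteins bound to the myosin neck, followed the heavy chains. MYL7 stood at 4.59, 2.41 and 3.31 CPM in RA-CHIR-BMP4 day 9 libraries, 568, 473 and 619 CPM in RA day 9, 2.75, 3.21 and 2.18 CPM in CHIR-BMP4 day 9 and 12.7, 5.45 and 8.12 CPM in untreated day 9 libraries. At day 6, MYL7 stood at 28.0, 30.7 and 29.7 CPM after RA and 44.8, 23.7 and 26.1 CPM in untreated libraries. MYL7, the atrial regulatory light chain, was already well above background at day 6 with or without RA, and RA day 9 was the one group above its day 6 level. MYL7 fell by 7.22 ± 0.29 (log2 ± SE, adjusted p = 3.3e-11) in RA-CHIR-BMP4 against RA day 9 and rose by 4.23 ± 0.23 (adjusted p = 1.3e-09) in RA day 9 against RA day 6 libraries. MYL4 stood at 1.39, 1.10 and 1.38 CPM in RA-CHIR-BMP4 day 9 libraries, 117, 77.3 and 111 CPM in RA day 9, 3.40, 4.54 and 2.64 CPM in CHIR-BMP4 day 9 and 8.52, 4.77 and 6.39 CPM in untreated day 9 libraries. At day 6, MYL4 stood at 3.42, 2.37 and 3.40 CPM after RA and 12.3, 8.75 and 7.41 CPM in untreated libraries. MYL4, the atrial and embryonic essential light chain, was lowest in RA-CHIR-BMP4 libraries, which did not overlap any other group. MYL4 fell by 6.27 ± 0.26 (log2 ± SE, adjusted p = 1.3e-13) in RA-CHIR-BMP4 against RA day 9 and rose by 5.08 ± 0.23 (adjusted p = 8.9e-13) in RA day 9 against RA day 6 libraries. MYL3 stood at 0.383, 0.201 and 0.276 CPM in RA-CHIR-BMP4 day 9 libraries, 15.2, 9.61 and 12.7 CPM in RA day 9, 0.0724, 0.333 and 0.155 CPM in CHIR-BMP4 day 9 and 0.322, 0.170 and 0.346 CPM in untreated day 9 libraries. At day 6, MYL3 stood at 2.76, 1.72 and 1.27 CPM after RA and 1.48, 0.955 and 1.5 CPM in untreated libraries. MYL3, the ventricular and slow muscle essential light chain, stayed low even in RA day 9 libraries. MYL3 fell by 5.26 ± 0.34 (log2 ± SE, adjusted p = 3.3e-12) in RA-CHIR-BMP4 against RA day 9 and rose by 2.67 ± 0.26 (adjusted p = 5.9e-09) in RA day 9 against RA day 6 libraries. MYL2, the ventricular regulatory light chain, had no read in any of the 18 libraries.

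Thin filament genes, actin and the troponins, differed in how far RA day 9 stood apart. ACTC1 stood at 19.5, 13.0 and 14.6 CPM in RA-CHIR-BMP4 day 9 libraries, 2423, 2201 and 3162 CPM in RA day 9, 15.7, 24.3 and 21.8 CPM in CHIR-BMP4 day 9 and 99.7, 46.3 and 103 CPM in untreated day 9 libraries. At day 6, ACTC1 stood at 28.8, 12.9 and 26.8 CPM after RA and 101, 63.8 and 74.8 CPM in untreated libraries. ACTC1, cardiac alpha-actin, was high in RA day 9 libraries and stood at an intermediate level in untreated libraries of both days. ACTC1 fell by 7.33 ± 0.40 (log2 ± SE, adjusted p = 2.4e-09) in RA-CHIR-BMP4 against RA day 9 and rose by 6.87 ± 0.39 (adjusted p = 4.7e-09) in RA day 9 against RA day 6 libraries. Actin paralogs are near-identical, so part of its reads may belong to ACTA1, ACTA2 or ACTG2. TNNC1 stood at 2.39, 4.12 and 2.76 CPM in RA-CHIR-BMP4 day 9 libraries, 74.4, 34.0 and 50.0 CPM in RA day 9, 4.85, 5.32 and 3.94 CPM in CHIR-BMP4 day 9 and 17.5, 19.1 and 17.8 CPM in untreated day 9 libraries. At day 6, TNNC1 stood at 18.8, 14.6 and 17.0 CPM after RA and 37.3, 23.1 and 19.9 CPM in untreated libraries. TNNC1, the calcium-binding troponin subunit of slow and cardiac muscle, was high in RA day 9 libraries, although RA day 9 replicate 2 lay below the highest untreated day 6 library. TNNC1 fell by 4.13 ± 0.33 (log2 ± SE, adjusted p = 2.8e-08) in RA-CHIR-BMP4 against RA day 9 and rose by 1.64 ± 0.27 (adjusted p = 7.6e-05) in RA day 9 against RA day 6 libraries. TNNI1 stood at 0.861, 1.41 and 1.10 CPM in RA-CHIR-BMP4 day 9 libraries, 45.1, 19.5 and 31.6 CPM in RA day 9, 0.434, 0.998 and 1.24 CPM in CHIR-BMP4 day 9 and 1.08, 2.04 and 1.90 CPM in untreated day 9 libraries. At day 6, TNNI1 stood at 0.883, 0.490 and 0.566 CPM after RA and 1.61, 2.55 and 0.966 CPM in untreated libraries. TNNI1, the slow skeletal troponin I that the fetal heart uses, was low in every group but RA day 9. TNNI1 fell by 4.88 ± 0.35 (log2 ± SE, adjusted p = 2e-10) in RA-CHIR-BMP4 against RA day 9 and rose by 5.61 ± 0.39 (adjusted p = 1.8e-10) in RA day 9 against RA day 6 libraries.

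Both troponin T genes, which tie the troponin complex to the thin filament, overlapped between RA day 9 and other groups. TNNT2 stood at 3.40, 4.72 and 6.06 CPM in RA-CHIR-BMP4 day 9 libraries, 29.8, 20.1 and 29.2 CPM in RA day 9, 3.33, 5.65 and 2.54 CPM in CHIR-BMP4 day 9 and 16.8, 19.2 and 22.3 CPM in untreated day 9 libraries. At day 6, TNNT2 stood at 2.76, 2.12 and 2.55 CPM after RA and 11.4, 11.8 and 7.51 CPM in untreated libraries. TNNT2, the cardiac form, overlapped between RA day 9 and untreated day 9 libraries and was lower in the other day 9 groups. TNNT2 fell by 2.56 ± 0.24 (log2 ± SE, adjusted p = 1.7e-08) in RA-CHIR-BMP4 against RA day 9 and rose by 3.42 ± 0.28 (adjusted p = 1.8e-09) in RA day 9 against RA day 6 libraries. TNNT1 stood at 8.13, 10.7 and 7.86 CPM in RA-CHIR-BMP4 day 9 libraries, 42.4, 32.9 and 30.4 CPM in RA day 9, 37.3, 31.9 and 39.7 CPM in CHIR-BMP4 day 9 and 28.2, 33.4 and 29.4 CPM in untreated day 9 libraries. At day 6, TNNT1 stood at 25.8, 27.5 and 31.9 CPM after RA and 81.2, 66.4 and 70.8 CPM in untreated libraries. TNNT1, the slow skeletal form, was highest in untreated day 6 libraries and lowest in RA-CHIR-BMP4 libraries. TNNT1 fell by 1.98 ± 0.14 (log2 ± SE, adjusted p = 4e-11) in RA-CHIR-BMP4 against RA day 9 and rose by 0.31 ± 0.13 (adjusted p = 0.046) in RA day 9 against RA day 6 libraries. The rise of TNNT1 was lost without RA day 9 replicate 1 (log2 0.17, adjusted p = 0.28), without RA day 6 replicate 1 (log2 0.24, adjusted p = 0.16) and without RA day 6 replicate 2 (log2 0.28, adjusted p = 0.12). It was also lost, at log2 0.31 and an adjusted p of 0.052, when untreated day 9 replicate 3 or CHIR-BMP4 replicate 1 was left out of the fit. TNNI3, the adult cardiac troponin I, ran from 2.19 to 5.62 CPM over all 18 libraries and was called in neither comparison (log2 0.13 ± 0.23, adjusted p = 0.63, and -0.30 ± 0.23, adjusted p = 0.29). LMOD2, which elongates actin filaments, had too few reads to be tested, with 1 count in RA-CHIR-BMP4, 14 in RA day 9 and 18 in RA day 6 libraries.

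MYBPC3, TTN and MYOM1 were high in RA day 9 libraries, and titin was abundant at day 6 as well. MYBPC3 had no read in RA-CHIR-BMP4 day 9 libraries, 53.6, 33.5 and 50.2 CPM in RA day 9, no read in CHIR-BMP4 day 9 and no read in untreated day 9 libraries. At day 6, MYBPC3 stood at 0.110, 0.164 and 0 CPM after RA and 0.134, 0.477 and 0 CPM in untreated libraries. MYBPC3, myosin-binding protein C of the heart, thus had nearly all of its reads in RA day 9 libraries. MYBPC3 was at least 567-fold lower in RA-CHIR-BMP4 than in RA day 9 libraries, with the empty group set to 3 counts. It was 422-fold higher (95% counting interval 144 to 2048) in RA day 9 than in RA day 6 libraries. TTN stood at 4.97, 7.73 and 6.62 CPM in RA-CHIR-BMP4 day 9 libraries, 481, 442 and 672 CPM in RA day 9, 9.55, 7.21 and 5.60 CPM in CHIR-BMP4 day 9 and 16.4, 11.6 and 16.4 CPM in untreated day 9 libraries. At day 6, TTN stood at 288, 444 and 398 CPM after RA and 392, 271 and 175 CPM in untreated libraries. TTN, the spring that spans the sarcomere from Z-disc to M-band, was abundant in both day 6 groups and in RA day 9 libraries. Its RA day 6 and RA day 9 libraries overlapped, and it was low in the 3 other day 9 groups. TTN fell by 6.43 ± 0.38 (adjusted p = 4.6e-09) in RA-CHIR-BMP4 relative to RA day 9 libraries, while RA day 9 minus RA day 6 was 0.50 ± 0.27 (adjusted p = 0.13), not called. The antisense transcript TTN-AS1 averaged 39.2 CPM in RA-CHIR-BMP4, 22.4 CPM in RA day 9 and 19.4 CPM in RA day 6 libraries, and reads of the pair may be mixed, since the strand setting of counting is not known. MYOM1 stood at 1.05, 0.703 and 0.413 CPM in RA-CHIR-BMP4 day 9 libraries, 51.2, 34.1 and 39.1 CPM in RA day 9, 0.724, 1.66 and 1.61 CPM in CHIR-BMP4 day 9 and 0.964, 1.36 and 1.55 CPM in untreated day 9 libraries. At day 6, MYOM1 stood at 1.10, 1.31 and 0.708 CPM after RA and 1.07, 1.11 and 0.537 CPM in untreated libraries. MYOM1, which cross-links thick filaments at the M-band, was at or below 1.66 CPM in all 15 libraries outside RA day 9. MYOM1 fell by 5.63 ± 0.26 (log2 ± SE, adjusted p = 1.5e-14) in RA-CHIR-BMP4 against RA day 9 and rose by 5.23 ± 0.26 (adjusted p = 6.1e-14) in RA day 9 against RA day 6 libraries. MYOM2, a second M-band protein of adult muscle, ran from 0.642 to 2.47 CPM over the 18 libraries and was called in no comparison. The interval that the count table gives for MYOM2 does not overlap the RefSeq gene, unlike those of the 40 other genes, so its values may not measure the whole gene.

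The chaperone and assembly genes SMYD1, UNC45B and HSPB7 had almost no reads outside RA day 9. SMYD1 stood at 0.0956, 0 and 0 CPM in RA-CHIR-BMP4 day 9 libraries, 41.4, 27.7 and 32.2 CPM in RA day 9, no read in CHIR-BMP4 day 9 and no read in untreated day 9 libraries. At day 6, SMYD1 stood at 0, 0.0818 and 0.142 CPM after RA and 0, 1.11 and 0.107 CPM in untreated libraries. SMYD1, a muscle methyltransferase needed for sarcomere assembly, thus had nearly all of its reads in RA day 9 libraries. SMYD1 was 625-fold lower (95% counting interval 172 to 5167) in RA-CHIR-BMP4 than in RA day 9 libraries. It was 465-fold higher (95% counting interval 128 to 3843) in RA day 9 than in RA day 6 libraries. UNC45B stood at 0.143, 0 and 0 CPM in RA-CHIR-BMP4 day 9 libraries, 55.4, 37.7 and 46.4 CPM in RA day 9, 0.145, 0 and 0.155 CPM in CHIR-BMP4 day 9 and 0.362, 1.02 and 0.518 CPM in untreated day 9 libraries. At day 6, UNC45B had no read after RA and 0.536, 1.11 and 0.429 CPM in untreated libraries. UNC45B, the muscle chaperone of myosin heads, was low in both untreated groups and absent from the reads of RA day 6. UNC45B was 576-fold lower (95% counting interval 196 to 2796) in RA-CHIR-BMP4 than in RA day 9 libraries. It was at least 428-fold higher in RA day 9 than in RA day 6 libraries. HSPB7 stood at 0.143, 0.201 and 0 CPM in RA-CHIR-BMP4 day 9 libraries, 17.2, 8.77 and 14.0 CPM in RA day 9, 0.0724, 0.111 and 0.0518 CPM in CHIR-BMP4 day 9 and 0.120, 0.170 and 0.173 CPM in untreated day 9 libraries. At day 6, HSPB7 stood at 0, 0.0818 and 0 CPM after RA and 0, 0.159 and 0 CPM in untreated libraries. HSPB7, a small heat shock protein of heart muscle, was at or below 0.201 CPM in each library outside RA day 9. HSPB7 fell by 6.53 ± 0.41 in RA-CHIR-BMP4 relative to RA day 9 libraries. It was 362-fold higher (95% counting interval 64.6 to 14360) in RA day 9 than in RA day 6 libraries.

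At the Z-disc, which anchors the thin filaments, 4 of the 5 genes that pass the filter without RA day 9 fell with CHIR99021 and BMP4 after RA, and 4 of 5 were higher at day 9 than at day 6 after RA. ANKRD1 stood at 25.7, 28.1 and 25.4 CPM in RA-CHIR-BMP4 day 9 libraries, 2077, 1996 and 2247 CPM in RA day 9, 36.2, 45.8 and 34.8 CPM in CHIR-BMP4 day 9 and 295, 336 and 312 CPM in untreated day 9 libraries. At day 6, ANKRD1 stood at 156, 156 and 169.5 CPM after RA and 381, 329 and 353 CPM in untreated libraries. ANKRD1, a titin-binding ankyrin-repeat protein that also acts in the nucleus, was present in every group, and its groups did not overlap except untreated day 9 with untreated day 6. ANKRD1 fell by 6.32 ± 0.11 (log2 ± SE, adjusted p = 3.2e-22) in RA-CHIR-BMP4 against RA day 9 and rose by 3.71 ± 0.09 (adjusted p = 6.2e-19) in RA day 9 against RA day 6 libraries. NEBL stood at 19.6, 17.8 and 18.1 CPM in RA-CHIR-BMP4 day 9 libraries, 160.3, 159 and 158 CPM in RA day 9, 63.3, 65.6 and 69.5 CPM in CHIR-BMP4 day 9 and 88.2, 80.7 and 70.5 CPM in untreated day 9 libraries. At day 6, NEBL stood at 38.8, 39.7 and 37.4 CPM after RA and 137, 180.2 and 149.6 CPM in untreated libraries. NEBL, nebulette, had closely spaced replicates, and its RA day 9 level overlapped that of untreated day 6. NEBL fell by 3.10 ± 0.10 (log2 ± SE, adjusted p = 2.4e-17) in RA-CHIR-BMP4 against RA day 9 and rose by 2.04 ± 0.09 (adjusted p = 1.1e-14) in RA day 9 against RA day 6 libraries. ACTN2 stood at 0.909, 1.0 and 0.276 CPM in RA-CHIR-BMP4 day 9 libraries, 61.8, 40.2 and 51.4 CPM in RA day 9, 1.81, 2.11 and 2.28 CPM in CHIR-BMP4 day 9 and 0.924, 1.70 and 1.55 CPM in untreated day 9 libraries. At day 6, ACTN2 stood at 1.32, 1.96 and 1.98 CPM after RA and 0.938, 0.796 and 0.429 CPM in untreated libraries. ACTN2, the sarcomeric alpha-actinin that cross-links actin, was at or below 2.28 CPM in all 15 libraries outside RA day 9. ACTN2 fell by 5.96 ± 0.24 (log2 ± SE, adjusted p = 1.5e-15) in RA-CHIR-BMP4 against RA day 9 and rose by 4.84 ± 0.23 (adjusted p = 1.6e-14) in RA day 9 against RA day 6 libraries.

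XIRP1, LDB3, CSRP3, MYOZ2 and DES, further genes of the Z-disc and its filaments, were scarce except in RA day 9 libraries, and TCAP was scarce in all groups. XIRP1 stood at 0.813, 0.201 and 0.413 CPM in RA-CHIR-BMP4 day 9 libraries, 83.3, 53.1 and 88.0 CPM in RA day 9, 0.362, 0.333 and 0.155 CPM in CHIR-BMP4 day 9 and 0.322, 1.36 and 0.864 CPM in untreated day 9 libraries. At day 6, XIRP1 stood at 6.18, 7.36 and 7.36 CPM after RA and 2.15, 3.50 and 1.72 CPM in untreated libraries. XIRP1, a Xin repeat protein of the intercalated disc, was next highest in RA day 6 libraries, which lay above all untreated and CHIR99021 and BMP4 libraries. XIRP1 fell by 7.01 ± 0.32 (log2 ± SE, adjusted p = 5.5e-13) in RA-CHIR-BMP4 against RA day 9 and rose by 3.42 ± 0.23 (adjusted p = 1.8e-10) in RA day 9 against RA day 6 libraries. LDB3 stood at 0.143, 0.904 and 0.138 CPM in RA-CHIR-BMP4 day 9 libraries, 37.9, 27.5 and 35.8 CPM in RA day 9, 0.217, 0.333 and 0.311 CPM in CHIR-BMP4 day 9 and 0.482, 0.511 and 1.21 CPM in untreated day 9 libraries. At day 6, LDB3 stood at 0.772, 0.736 and 0.283 CPM after RA and 0.670, 1.11 and 0.859 CPM in untreated libraries. LDB3, a PDZ and LIM protein that binds alpha-actinin, was at or below 1.21 CPM in each library outside RA day 9. LDB3 fell by 6.55 ± 0.33 (log2 ± SE) in RA-CHIR-BMP4 against RA day 9 and rose by 5.71 ± 0.32 in RA day 9 against RA day 6 libraries. The fall was -7.94 for XIRP1 without RA-CHIR-BMP4 replicate 1, and -5.84 and -7.77 for LDB3 without RA-CHIR-BMP4 replicates 1 and 2. CSRP3, muscle LIM protein, had no read in RA-CHIR-BMP4 libraries, 13.3, 7.73 and 11.3 CPM in RA day 9 libraries and no read in the other groups. CSRP3 was therefore at least 133-fold lower in RA-CHIR-BMP4 than in RA day 9 libraries. It was at least 98.7-fold higher in RA day 9 than in RA day 6 libraries. MYOZ2, which tethers calcineurin to the Z-disc, was at or below 0.201 CPM in RA-CHIR-BMP4 libraries, ran from 4.11 to 6.26 CPM in RA day 9 libraries and was at or below 0.859 CPM elsewhere. DES, the desmin intermediate filament, was at or below 0.191 CPM in RA-CHIR-BMP4 libraries, ran from 1.78 to 6.10 CPM in RA day 9 libraries, where replicate 1 was the highest, and was at or below 1.5 CPM elsewhere. DES fell by 4.45 ± 0.70 in RA-CHIR-BMP4 relative to RA day 9 libraries, -3.75 without RA day 9 replicate 1 and -5.46 without RA-CHIR-BMP4 replicate 1. TCAP, telethonin, which caps titin at the Z-disc, was the one gene that rose, at 1.48 to 1.93 CPM in RA-CHIR-BMP4 against 0.626 to 1.0 CPM in RA day 9 libraries. TCAP rose by 1.0 ± 0.34 (adjusted p = 0.013), but at log2 0.82 it was no longer called without RA day 9 replicate 2 (adjusted p = 0.078), nor by DESeq2 (adjusted p = 0.061).

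In the calcium store, ATP2A2 and RYR2, which pass the filter without RA day 9, fell with CHIR99021 and BMP4 after RA and were higher at day 9 than at day 6 after RA. ATP2A2 stood at 375, 388 and 400.5 CPM in RA-CHIR-BMP4 day 9 libraries, 591, 651 and 586 CPM in RA day 9, 350.1, 353 and 320.2 CPM in CHIR-BMP4 day 9 and 369, 352 and 342 CPM in untreated day 9 libraries. At day 6, ATP2A2 stood at 400.5, 394 and 411 CPM after RA and 396, 382 and 396 CPM in untreated libraries. ATP2A2, the SERCA2 pump that refills the store and is used by most cell types, was abundant in every library, and the RA day 9 mean was 1.52-fold that of the next group. ATP2A2 fell by 0.65 ± 0.06 (log2 ± SE, adjusted p = 4.9e-09) in RA-CHIR-BMP4 against RA day 9 and rose by 0.60 ± 0.06 (adjusted p = 2.3e-08) in RA day 9 against RA day 6 libraries. PLN, phospholamban, an inhibitor of that pump, was at or below 0.0478 CPM in RA-CHIR-BMP4 libraries, ran from 8.56 to 9.46 CPM in RA day 9 libraries and was at or below 0.283 CPM elsewhere. SLN, sarcolipin, a second inhibitor, was at or below 0.0478 CPM in RA-CHIR-BMP4 libraries, ran from 4.28 to 8.18 CPM in RA day 9 libraries and was at or below 0.566 CPM elsewhere. Both inhibitors thus had a handful of reads outside RA day 9. PLN was 336-fold lower (95% counting interval 59.8 to 13350) in RA-CHIR-BMP4 than in RA day 9 libraries. SLN was 235-fold lower (95% counting interval 41.6 to 9346) in the same comparison. RYR2, the channel through which the store releases calcium, ran from 0.0956 to 0.402 CPM in RA-CHIR-BMP4, 7.52 to 12.7 CPM in RA day 9, 1.81 to 2.90 CPM in CHIR-BMP4, 0.173 to 1.53 CPM in untreated day 9, 0.441 to 1.98 CPM in RA day 6 and 0.637 to 1.34 CPM in untreated day 6 libraries. RYR2 fell by 5.54 ± 0.52 (log2 ± SE, adjusted p = 5.4e-09) in RA-CHIR-BMP4 against RA day 9 and rose by 3.23 ± 0.41 (adjusted p = 6.8e-07) in RA day 9 against RA day 6 libraries. The second value was 3.90 without RA day 6 replicate 3. CASQ2, the calcium-binding calsequestrin of the store, was too scarce to test, at 0.143 to 0.551 CPM in RA-CHIR-BMP4, 0.626 to 0.778 CPM in RA day 9 and at most 0.511 CPM in any other library.

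The 3 channel genes were present in more than 1 condition. HCN4 stood at 9.47, 8.74 and 10.9 CPM in RA-CHIR-BMP4 day 9 libraries, 39.8, 64.1 and 73.0 CPM in RA day 9, 2.90, 1.88 and 2.95 CPM in CHIR-BMP4 day 9 and 3.42, 1.02 and 1.73 CPM in untreated day 9 libraries. At day 6, HCN4 stood at 5.85, 5.97 and 4.67 CPM after RA and 3.62, 3.66 and 3.86 CPM in untreated libraries. HCN4, the pacemaker channel, was highest in RA day 9 libraries, and RA-CHIR-BMP4 libraries lay above those of all 4 remaining groups. HCN4 fell by 2.62 ± 0.21 (log2 ± SE, adjusted p = 2.1e-09) in RA-CHIR-BMP4 against RA day 9 and rose by 3.41 ± 0.23 (adjusted p = 2.1e-10) in RA day 9 against RA day 6 libraries. CACNA1C stood at 1.48, 1.31 and 1.10 CPM in RA-CHIR-BMP4 day 9 libraries, 12.8, 10.02 and 16.9 CPM in RA day 9, 3.69, 2.00 and 3.37 CPM in CHIR-BMP4 day 9 and 2.65, 4.25 and 2.94 CPM in untreated day 9 libraries. At day 6, CACNA1C stood at 1.54, 2.37 and 1.42 CPM after RA and 1.48, 1.11 and 1.72 CPM in untreated libraries. CACNA1C, the pore of the L-type calcium channel that starts contraction, was above all others in RA day 9 libraries. CACNA1C fell by 3.29 ± 0.27 (log2 ± SE, adjusted p = 2.1e-10) in RA-CHIR-BMP4 against RA day 9 and rose by 2.84 ± 0.26 (adjusted p = 2.6e-09) in RA day 9 against RA day 6 libraries. KCNH2 stood at 7.41, 7.03 and 6.89 CPM in RA-CHIR-BMP4 day 9 libraries, 9.79, 12.4 and 14.2 CPM in RA day 9, 18.2, 15.4 and 17.2 CPM in CHIR-BMP4 day 9 and 18.3, 21.4 and 16.4 CPM in untreated day 9 libraries. At day 6, KCNH2 stood at 12.6, 17.2 and 12.5 CPM after RA and 11.7, 11 and 9.55 CPM in untreated libraries. KCNH2, the hERG potassium channel that ends the action potential, was highest in untreated day 9 and lowest in RA-CHIR-BMP4 libraries. KCNH2 fell by 0.78 ± 0.16 (adjusted p = 0.00019) in RA-CHIR-BMP4 relative to RA day 9 libraries, and RA day 9 minus RA day 6 was -0.22 ± 0.15 (adjusted p = 0.23), not called.

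Natriuretic peptides, hormones released by stretched heart muscle, and the protease that activates them were all higher in RA day 9 libraries. NPPB stood at 6.22, 7.63 and 5.51 CPM in RA-CHIR-BMP4 day 9 libraries, 346, 356 and 468 CPM in RA day 9, 1.59, 2.99 and 1.76 CPM in CHIR-BMP4 day 9 and 7.11, 5.79 and 6.74 CPM in untreated day 9 libraries. At day 6, NPPB stood at 51.3, 78.7 and 91.6 CPM after RA and 37.0, 17.0 and 18.9 CPM in untreated libraries. NPPB, the B-type peptide, was second highest in RA day 6 libraries, which lay above the untreated day 6 libraries. NPPB fell by 5.91 ± 0.31 (log2 ± SE, adjusted p = 8.2e-10) in RA-CHIR-BMP4 against RA day 9 and rose by 2.40 ± 0.24 (adjusted p = 1e-06) in RA day 9 against RA day 6 libraries. CORIN stood at 0.669, 0.402 and 0.138 CPM in RA-CHIR-BMP4 day 9 libraries, 15.2, 25.1 and 20.4 CPM in RA day 9, 1.81, 1.77 and 1.29 CPM in CHIR-BMP4 day 9 and 0.362, 1.02 and 0.346 CPM in untreated day 9 libraries. At day 6, CORIN stood at 2.65, 1.72 and 1.84 CPM after RA and 3.22, 4.93 and 6.12 CPM in untreated libraries. CORIN, which cleaves the atrial peptide's precursor, was second highest in untreated day 6 libraries. CORIN fell by 5.36 ± 0.33 (log2 ± SE, adjusted p = 1.6e-12) in RA-CHIR-BMP4 against RA day 9 and rose by 3.31 ± 0.27 (adjusted p = 3.4e-10) in RA day 9 against RA day 6 libraries. CORIN's fall was -6.08 without RA-CHIR-BMP4 replicate 1. NPPA, the atrial peptide, was at or below 0.10 CPM in RA-CHIR-BMP4 libraries, ran from 3.97 to 8.44 CPM in RA day 9 libraries and was at or below 0.164 CPM elsewhere. NPPA was 118-fold lower (95% counting interval 32.2 to 986) in RA-CHIR-BMP4 than in RA day 9 libraries. CKMT2, the mitochondrial creatine kinase of striated muscle, ran from 0.909 to 1.41 CPM in RA-CHIR-BMP4 libraries, 7.86 to 8.56 CPM in RA day 9 and at most 1.21 CPM elsewhere. CKMT2 fell by 2.83 ± 0.26 (log2 ± SE, adjusted p = 2e-09) in RA-CHIR-BMP4 against RA day 9 and rose by 3.24 ± 0.29 (adjusted p = 1.1e-09) in RA day 9 against RA day 6 libraries.

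**Figure D3:**
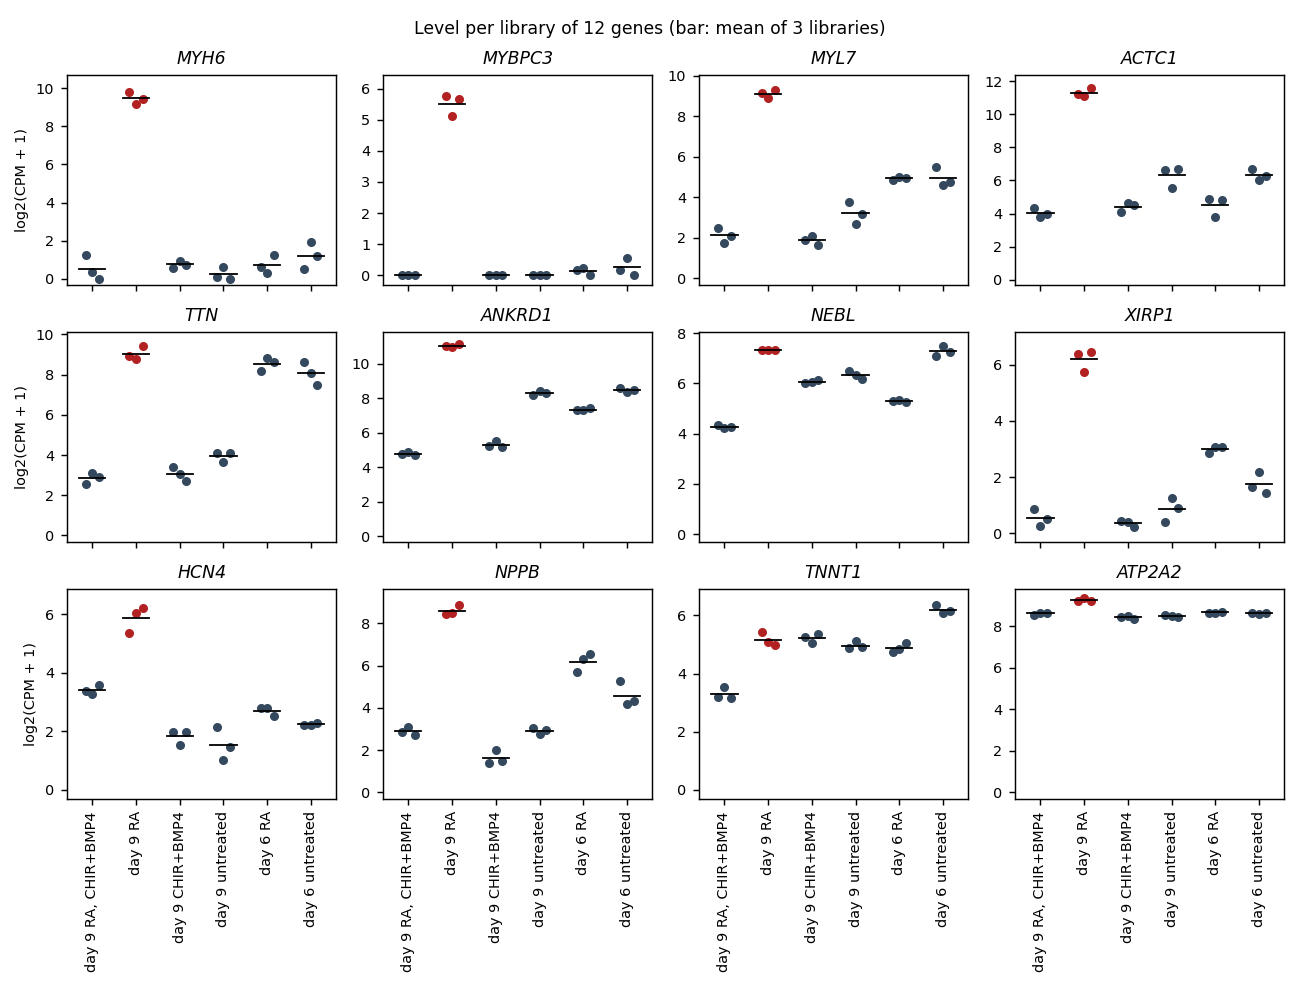
Levels of 12 of the genes as log2(CPM + 1) in each library (points) with the mean of the 3 values (bars), 1 panel per gene with its own axis, RA day 9 in red. For 9 of them the RA day 9 points lie above every other point, while for TTN, NEBL and TNNT1 other groups reach them.

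RA alone at day 9, compared with untreated day 9, gave 20 genes higher and 2 lower of the 26 that pass the filter without RA day 9, against 32% called higher and 32.9% called lower of the genes that pass it. The median log2 fold change was 4.14 over the 26, and -0.03 over all that pass. Genes of every role that has members among the 26 rose. Over the 38 tested, 32 rose and 2 fell, against 32.5% of all tested genes in each direction. MYH6 rose by 12.24 ± 0.48 (adjusted p = 4.4e-11), MYL7 rose by 5.79 ± 0.27 (adjusted p = 1.3e-10) and ACTN2 rose by 5.41 ± 0.24 (adjusted p = 8.5e-15). MYBPC3 was at least 544-fold higher, SMYD1 at least 399-fold higher and CSRP3 at least 127-fold higher, with the empty group set to 3 counts. The pump inhibitor PLN was 323-fold higher (95% counting interval 57.3 to 12800), and the peptide NPPA 227-fold higher (95% counting interval 40.1 to 9018). A troponin and a potassium channel went the other way. TNNI3 fell by 0.72 ± 0.23 (adjusted p = 0.0079) and KCNH2 fell by 0.60 ± 0.15 (adjusted p = 0.0011), though TNNI3 was no longer called without RA day 9 replicate 2 (log2 -0.50, adjusted p = 0.078). TNNT2 (0.46 ± 0.21, adjusted p = 0.067), TNNT1 (0.22 ± 0.13, adjusted p = 0.14), TCAP (-0.77 ± 0.35, adjusted p = 0.06) and MYOM2 (0.10 ± 0.38, adjusted p = 0.84) were not called. With the read-kind score as a covariate, which moves with this comparison, 14 of the 32 were still called higher and 0 of the 2 lower, among 8.09% of all tested genes called in either direction. Of the 32, 30 kept a positive sign. The 14 were MYH6, MYH7, MYL4, MYL7, TNNI1, MYBPC3, TTN, SMYD1, UNC45B, NEBL, MYOM1, XIRP1, ANKRD1 and CORIN. Among them, MYH7, MYBPC3, SMYD1 and UNC45B passed the filter only through RA day 9 and add no support. ACTC1 was then 4.14 (adjusted p = 0.11), NPPB 4.85 (adjusted p = 0.06) and ACTN2 6.74 (adjusted p = 0.076). RYR2 went from 2.87 to 0.13 (adjusted p = 0.99) and CACNA1C from 2.09 to 1.21 (adjusted p = 0.74), while DES (-3.52) and SLN (-7.31) changed sign. Without untreated day 9 replicate 1, the deepest library, the fold change of HCN4 was 5.42 against 4.52 with it, and that of MYH6 11.39.

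Where CHIR99021 and BMP4 followed, RA was accompanied by fewer calls. RA-CHIR-BMP4 relative to CHIR-BMP4 libraries gave 4 higher and 9 lower of the 26 genes that pass the filter without RA day 9. Of all genes that pass it, 21.3% were called higher and 22.3% lower. The median was -0.27 over the 26 and -0.01 over all that pass. Over the 38 tested, 4 were higher and 9 lower, against 21.2% and 22.1% of all tested genes. Their median of 0.00 includes MYBPC3 and CSRP3, which had no read in either group. With the read-kind covariate the same 13 were called, among 44.4% of all tested genes in either direction. As both groups are treated, their scores hardly differ, and that fit adds no support. HCN4 rose by 1.84 ± 0.27 (adjusted p = 1.6e-05), NPPB rose by 1.70 ± 0.47 (adjusted p = 0.01), CKMT2 rose by 0.97 ± 0.36 (adjusted p = 0.032) and ATP2A2 rose by 0.18 ± 0.06 (adjusted p = 0.022). RYR2 fell by 3.61 ± 0.60 (adjusted p = 4.4e-05), TNNT1 fell by 2.05 ± 0.14 (adjusted p = 5.4e-11), NEBL fell by 1.83 ± 0.10 (adjusted p = 8.1e-13) and CORIN fell by 1.68 ± 0.43 (adjusted p = 0.0028). Those that rose were a pacemaker channel, a peptide, a creatine kinase and the calcium pump, and those that fell were filament, Z-disc, store, channel and protease genes. ACTN2 fell by 1.36 ± 0.33 (adjusted p = 0.0019), MYL4 fell by 1.35 ± 0.35 (adjusted p = 0.004), KCNH2 fell by 1.25 ± 0.15 (adjusted p = 3.7e-07), CACNA1C fell by 1.20 ± 0.29 (adjusted p = 0.0019) and ANKRD1 fell by 0.55 ± 0.10 (adjusted p = 9.2e-05). CKMT2 was no longer called without CHIR-BMP4 replicate 2 or 3 or RA-CHIR-BMP4 replicate 2 or 3 (log2 0.82 to 0.96), and ATP2A2 without CHIR-BMP4 replicate 3 or RA-CHIR-BMP4 replicate 2 or 3 (log2 0.14 to 0.18). Without RA-CHIR-BMP4 replicates 1 and 2 in turn, RYR2 was -3.0 and -4.35, and CORIN was -2.41 without replicate 1.

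The difference between those RA responses, with CHIR99021 and BMP4 minus without, was tested as an interaction. It was called below 0 for 22 of the 26 genes that pass the filter without RA day 9 and above 0 for 0, against 27.6% called lower and 25.9% called higher of the genes that pass it, with medians of -4.19 and 0.01. Over the 38 it was below 0 for 29 (27.9% of all tested genes called lower, 25.5% higher). Among the 26, 1 gene, TCAP, was above 0 at an unadjusted p below 0.05 in edgeR, and DESeq2 and limma on log2 TPM called 0 above 0. The interaction was -11.98 ± 1.56 for MYH6 (adjusted p = 2.1e-05), -5.29 ± 0.56 for MYL7 (adjusted p = 2.4e-06), -6.76 ± 0.41 for ACTN2 (adjusted p = 7.3e-12) and -3.29 ± 0.13 for ANKRD1 (adjusted p = 1e-14). For MYBPC3, SMYD1, CSRP3 and NPPA, groups without reads left no interaction to evaluate. It was not called for TNNT2 (-0.15 ± 0.36, adjusted p = 0.74), TNNI3 (adjusted p = 0.25), TCAP (1.02 ± 0.45, adjusted p = 0.061), SLN (adjusted p = 0.12) or MYOM2 (adjusted p = 0.67). With the read-kind covariate 13 of the 29 were still called: MYH6, MYH7, MYL4, ACTN2, TNNT1, TNNI1, TTN, UNC45B, NEBL, MYOM1, XIRP1, ANKRD1 and CORIN. Among them, MYH7 and UNC45B passed the filter only through RA day 9 and add no support. Of all tested genes, 7.42% were called with it in either direction. Several that lost their call kept large values, such as MYL7 at -4.28 (adjusted p = 0.058), ACTC1 at -4.46 (adjusted p = 0.11), LDB3 at -6.93 (adjusted p = 0.083) and CKMT2 at -6.49 (adjusted p = 0.17).

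CHIR99021 and BMP4 without RA, compared with untreated day 9, gave 3 higher and 8 lower of the 26 genes that pass the filter without RA day 9. Of all genes that pass it, 21.2% were called higher and 21.9% lower. The median was -0.22 over the 26. Over the 38 tested, 3 were higher and 9 lower, against 21% and 21.8% of all tested genes, with a median of -0.29. ANKRD1 fell by 3.02 ± 0.09 (adjusted p = 8.7e-17), TNNT2 fell by 2.40 ± 0.25 (adjusted p = 1.8e-07), ACTC1 fell by 2.04 ± 0.35 (adjusted p = 0.00035), TNNC1 fell by 1.97 ± 0.32 (adjusted p = 0.00014) and MYL7 fell by 1.93 ± 0.37 (adjusted p = 0.00081). The genes that fell are filament, troponin, chaperone, Z-disc and peptide genes. UNC45B fell by 1.99 ± 0.71 (adjusted p = 0.027), NPPB fell by 1.76 ± 0.47 (adjusted p = 0.0088), MYL4 fell by 1.08 ± 0.26 (adjusted p = 0.0024) and NEBL fell by 0.28 ± 0.09 (adjusted p = 0.013). CORIN rose by 1.71 ± 0.45 (adjusted p = 0.0034), CKMT2 rose by 1.49 ± 0.52 (adjusted p = 0.024) and ACTN2 rose by 0.80 ± 0.32 (adjusted p = 0.045). Without untreated day 9 replicate 1, MYL4 (-0.73), NPPB (-1.65), NEBL (-0.19), CORIN (1.19), CKMT2 (0.71) and ACTN2 (0.35) were not called, at adjusted p of 0.077 to 0.53. Without CHIR-BMP4 replicate 1, NEBL (-0.25), CKMT2 (1.38) and UNC45B (-2.14) were not called, and UNC45B also lost its call without untreated day 9 replicate 2 (-1.65) and without CHIR-BMP4 replicate 2 or 3. ACTN2, with an adjusted p near the threshold, lost its call also without CHIR-BMP4 replicate 2 or 3 and without some libraries of other groups. With the read-kind covariate, which moves with this comparison, 1 of the 12 was called, ANKRD1 at -3.30 (adjusted p = 2.9e-05), among 1.11% of all tested genes. MYL7 was then -2.93 (adjusted p = 0.31), ACTC1 -2.86 (adjusted p = 0.45), TNNC1 -2.15 (adjusted p = 0.51) and NPPB -2.77 (adjusted p = 0.45), values at least as large as without the covariate, while TNNT2 was -0.96 (adjusted p = 0.75) and NEBL (0.42) and UNC45B (1.12) changed sign.

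At day 6, at the end of the RA step, RA relative to untreated libraries gave 5 higher and 7 lower of the 26 genes that pass the filter without RA day 9. Of all genes that pass it, 25.5% were called higher and 23.6% lower. The median was 0.04 over the 26. Over the 38 tested, 5 were higher and 8 lower, against 25.3% and 23.4% of all tested genes, with a median of -0.05. NPPB rose by 1.60 ± 0.27 (adjusted p = 0.00026), XIRP1 rose by 1.56 ± 0.34 (adjusted p = 0.00083), ACTN2 rose by 1.32 ± 0.43 (adjusted p = 0.013), CKMT2 rose by 1.26 ± 0.50 (adjusted p = 0.043) and KCNH2 rose by 0.42 ± 0.16 (adjusted p = 0.03). TNNT2 fell by 2.04 ± 0.30 (adjusted p = 1.5e-05), NEBL fell by 2.00 ± 0.09 (adjusted p = 3.4e-14), ACTC1 fell by 1.85 ± 0.36 (adjusted p = 0.00087), MYL4 fell by 1.66 ± 0.29 (adjusted p = 9.9e-05) and TNNT1 fell by 1.37 ± 0.12 (adjusted p = 4e-09). The heart muscle markers MYH6, MYL7 and MYBPC3 were called in neither direction at that day. CORIN fell by 1.22 ± 0.32 (adjusted p = 0.0026) and ANKRD1 fell by 1.14 ± 0.09 (adjusted p = 1.6e-10), while UNC45B, with 0 counts after RA and 15 without, was at least 6.15-fold lower (adjusted p = 0.00092). KCNH2 was no longer called without untreated day 6 replicate 2 or 3 or RA day 6 replicate 2 (log2 0.23 to 0.44), and ACTN2 without untreated day 6 replicate 3 (0.99) or RA day 6 replicate 2 (1.20). CKMT2 was lost without untreated day 6 replicate 1 or 3 or RA day 6 replicate 1 or 2 (log2 0.93 to 1.38), and, at an adjusted p of 0.051, without RA day 9 replicate 2 or 3. With the read-kind covariate, which moves with this comparison too, 3 were called, all lower, among 7.77% of all tested genes: TNNT1 at -1.69 (adjusted p = 0.0079), NEBL at -1.47 (adjusted p = 0.00061) and ANKRD1 at -1.35 (adjusted p = 0.0032).

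Without any treatment, day 9 relative to day 6 gave 3 higher and 9 lower of the 26 genes that pass the filter without RA day 9. Of all genes that pass it, 24.2% were called higher and 23% lower. The median was -0.44 over the 26. Over the 38 tested, 3 were higher and 11 lower, against 24% and 22.9% of all tested genes, with a median of -0.49. TTN fell by 4.20 ± 0.34 (adjusted p = 3.9e-07), CORIN fell by 3.30 ± 0.40 (adjusted p = 5e-07), MYL3 fell by 2.12 ± 0.48 (adjusted p = 0.00097), NPPB fell by 1.85 ± 0.35 (adjusted p = 0.00066) and MYL7 fell by 1.66 ± 0.28 (adjusted p = 0.00025). TNNT1 fell by 1.28 ± 0.12 (adjusted p = 1.7e-08), NEBL fell by 0.95 ± 0.09 (adjusted p = 8.2e-09), XIRP1 fell by 1.97 ± 0.52 (adjusted p = 0.0044), MYOZ2 fell by 2.04 ± 0.75 (adjusted p = 0.028) and MYH6 fell by 3.28 ± 1.26 (adjusted p = 0.047). Titin, light chain and peptide genes were thus among those that fell without RA. SMYD1, with no count at day 9 and 8 at day 6, was at least 4.23-fold lower (adjusted p = 0.026). TNNT2 rose by 0.92 ± 0.23 (adjusted p = 0.0032), CACNA1C rose by 1.07 ± 0.33 (adjusted p = 0.011) and KCNH2 rose by 0.80 ± 0.15 (adjusted p = 0.00016). MYH6 and MYOZ2 lost their calls without several single libraries (MYH6 -2.42 without untreated day 9 replicate 1 and -2.60 without untreated day 6 replicate 2, MYOZ2 -1.60 without untreated day 6 replicate 3). XIRP1 was not called without untreated day 9 replicate 1 (-1.07), nor SMYD1 without that library or untreated day 6 replicate 2. With the read-kind covariate 11 genes were called, KCNH2 higher and 10 lower, among 30.7% of all tested genes called in either direction. The 10 were 8 of the 11 that fell, with MYH7 (-2.77, adjusted p = 0.036) and MYBPC3 (-5.21, adjusted p = 0.037) besides.

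In TPM, the 3 most abundant of the genes in RA day 9 libraries were ANKRD1 (6828 ± 526 TPM, SD, n = 3), ACTC1 (3263 ± 689 TPM) and NPPB (3199 ± 612 TPM). The last pair did not differ beyond their spread. MYL7 (789 ± 116 TPM) and MYH6 (456 ± 105 TPM) followed, then TNNC1 (187 ± 70.8 TPM), MYL4 (152 ± 32.7 TPM) and ATP2A2 (126 ± 6.76 TPM), whose ranges of 1 SD overlap. MYBPC3 stood at 58.5 ± 13.9 TPM, HCN4 at 49.5 ± 15.1 TPM, MYH7 at 41 ± 8.85 TPM and TTN at 25.5 ± 6.35 TPM. Leaving aside MYOM2, for the reason given with its values, the lowest genes with reads were CASQ2 (1.41 ± 0.197 TPM) and LMOD2 (1.14 ± 0.823 TPM). Among paralogs, the ratio of MYH6 to MYH7 was 10.7 to 11.5 over the 3 RA day 9 libraries, that of MYL7 to MYL4 4.64 to 5.87 and that of MYL4 to MYL3 11.2 to 12.8. In each such pair the atrial or embryonic form exceeded the ventricular one, apart from MYL7 to MYL4, which are both atrial. TNNI1 to TNNI3, the fetal over the adult cardiac form, was 3.02 to 4.14 in RA day 9 libraries and 0.0415 to 0.226 in the other groups. TNNT2 to TNNT1 was 0.198 to 0.312, NPPB to NPPA 121 to 200.4 and PLN to SLN 0.556 to 0.961 in RA day 9 libraries.

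**Figure D4:**
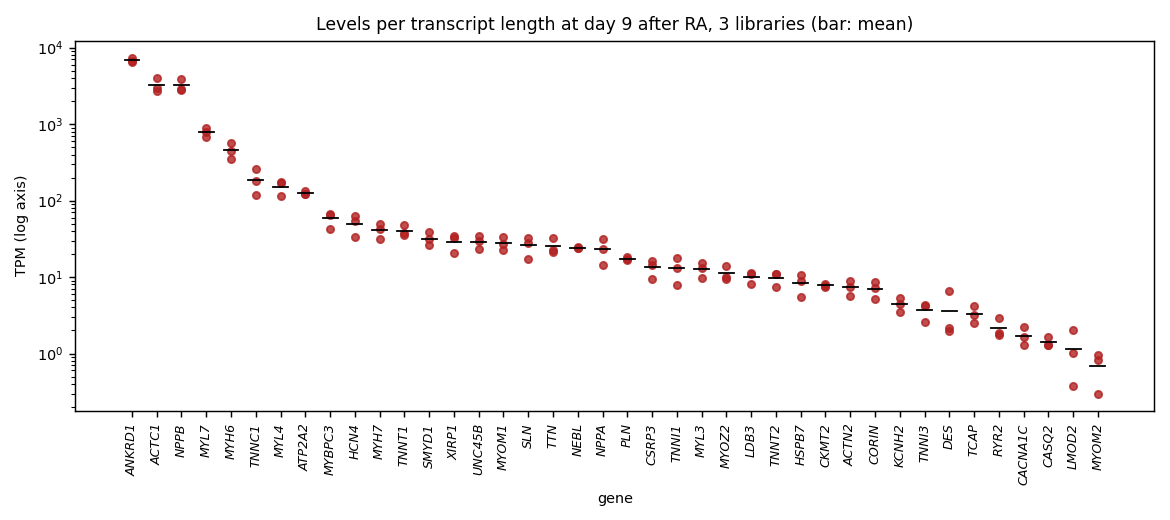
Mean TPM in RA day 9 libraries (log axis, points for the 3 libraries, bars for their mean) of the 40 genes with reads there or elsewhere, in descending order. ANKRD1, ACTC1 and NPPB lead at 6828, 3263 and 3199 TPM, and MYOM2, plotted last, may not measure the whole gene.

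Genes for heart transcription factors and signals moved with the sarcomere genes in part. Of 22 listed, 17 pass the filter without RA day 9, and of these 1 rose and 15 fell in RA-CHIR-BMP4 relative to RA day 9 libraries, while 12 rose and 3 fell in RA day 9 against RA day 6 libraries. Of all genes that pass it, 32.5% rose and 31.7% fell in the first comparison, and 27.9% rose and 30.7% fell in the second. MYOCD stood at 1.10, 0.904 and 0.827 CPM in RA-CHIR-BMP4 day 9, 177, 173 and 206 CPM in RA day 9, 0.507, 0.222 and 0.414 CPM in CHIR-BMP4 day 9, 5.75, 7.83 and 5.01 CPM in untreated day 9, 2.87, 2.78 and 4.67 CPM in RA day 6 and 46.0, 40.9 and 35.5 CPM in untreated day 6 libraries. MYOCD, the SRF cofactor of heart and smooth muscle, was -7.53 in RA-CHIR-BMP4 relative to RA day 9 libraries (log2, adjusted p = 1.1e-19). NKX2-5 stood at 0.0478, 0.402 and 0 CPM in RA-CHIR-BMP4 day 9, 21.0, 8.88 and 7.67 CPM in RA day 9, 36.3, 45.0 and 50.8 CPM in CHIR-BMP4 day 9, 39.5, 33.7 and 35.9 CPM in untreated day 9, 0.441, 0.0818 and 0.425 CPM in RA day 6 and 4.69, 6.05 and 10.2 CPM in untreated day 6 libraries. NKX2-5, an early heart regulator also found in pharyngeal endoderm, was thus highest without RA at day 9. RA day 9 minus untreated day 9 was -1.62 (adjusted p = 0.00037), and -3.63 (adjusted p = 0.23) with the read-kind covariate. GATA4 stood at 29.2, 32.8 and 35.1 CPM in RA-CHIR-BMP4 day 9, 40.8, 56.6 and 87.8 CPM in RA day 9, 9.26, 6.76 and 6.94 CPM in CHIR-BMP4 day 9, 9.36, 4.25 and 3.80 CPM in untreated day 9, 202, 226 and 184 CPM in RA day 6 and 33.6, 30.4 and 17.0 CPM in untreated day 6 libraries. GATA4, expressed in heart and endoderm, was highest at day 6 after RA, and RA day 9 minus RA day 6 was -1.71 (adjusted p = 0.00011). TBX20 (-6.37, adjusted p = 3e-11), MEF2C (-3.85, adjusted p = 9.6e-07) and the atrial signal BMP10 (-7.89, adjusted p = 1.2e-08) fell in RA-CHIR-BMP4 relative to RA day 9 libraries, and NR2F2 rose (1.85, adjusted p = 1.6e-08). TBX5, IRX4, SHOX2 and MESP1 had too few reads to be tested, with TBX5 at 0.160, 0.209 and 0.778 CPM in RA day 9 libraries.

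**Figure D5:**
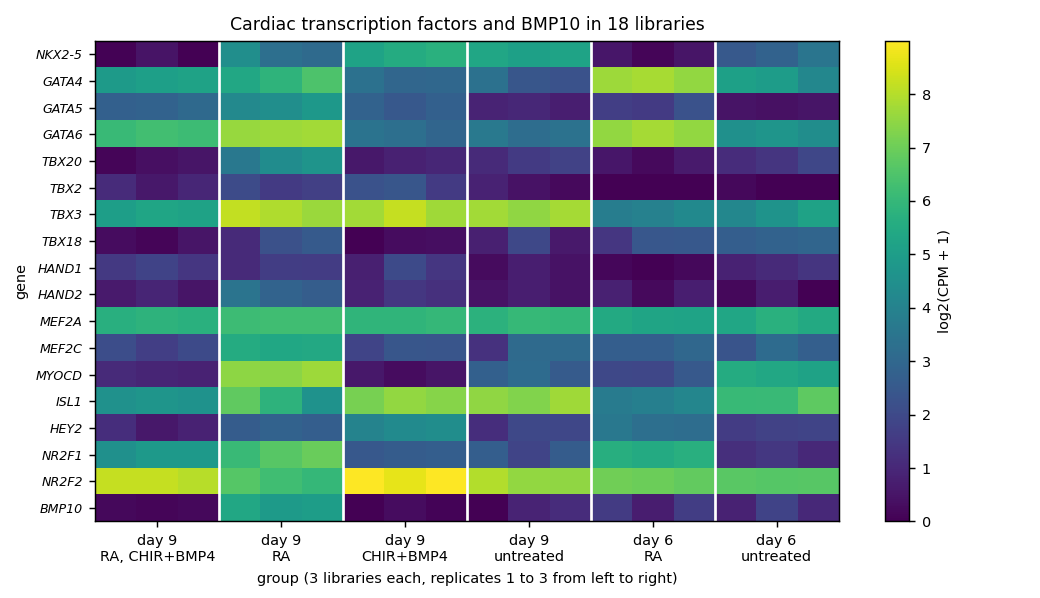
Levels of the 18 tested heart regulators (rows) in the 18 libraries (columns, grouped by condition), coloured by log2(CPM + 1). MYOCD, MEF2C, TBX20 and BMP10 are brightest in RA day 9 columns, while NKX2-5, ISL1 and NR2F2 are brighter in CHIR-BMP4 and untreated day 9 columns than in RA day 9 columns.

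Sarcomere and excitation genes outside the 41, listed from general knowledge, were counted in the same comparisons. Of all genes that pass the filter without RA day 9, 32.5% rose and 31.7% fell in RA-CHIR-BMP4 relative to RA day 9 libraries. In RA day 9 relative to RA day 6 libraries, 27.9% rose and 30.7% fell. Of 14 further sarcomere genes that pass the filter without RA day 9, out of 25 listed, 1 rose and 12 fell in RA-CHIR-BMP4 relative to RA day 9 libraries and 11 rose and 1 fell in RA day 9 against RA day 6 libraries. SYNPO2L, a Z-disc protein, was -7.07 (adjusted p = 8.7e-14) and 4.68 (adjusted p = 3.1e-12) in these comparisons, and the chaperone CRYAB -5.76 (adjusted p = 2.4e-10) and 6.05 (adjusted p = 6.9e-10). Of 27 such excitation genes, out of 30 listed, 6 rose and 15 fell in the first comparison and 14 rose and 4 fell in the second. JPH2, which ties the calcium store to the surface membrane, was -5.54 (adjusted p = 4.8e-18) and 4.66 (adjusted p = 3e-17), and HRC, a store calcium-binding protein, -2.88 (adjusted p = 4.7e-09) and 4.59 (adjusted p = 1.4e-10).

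Of the other cell types, smooth muscle markers moved in the same direction as the sarcomere genes in both comparisons below. Most endoderm genes also fell in the first. Counts are again read beside all genes that pass the filter without RA day 9. Of those, 32.5% rose and 31.7% fell in RA-CHIR-BMP4 relative to RA day 9 libraries. In RA day 9 relative to RA day 6 libraries, 27.9% rose and 30.7% fell. The 11 smooth muscle genes of 12 that pass the filter without RA day 9 all fell in RA-CHIR-BMP4 relative to RA day 9 libraries and all rose in RA day 9 relative to RA day 6 libraries. None of the 12 was without reads in any group, and MYOCD and DES stand on other lists as well. Their summed level was 193 to 210.4 CPM in RA-CHIR-BMP4, 3820 to 5035 CPM in RA day 9, 209.9 to 219 CPM in CHIR-BMP4, 445 to 584.5 CPM in untreated day 9, 282 to 337 CPM in RA day 6 and 587 to 851 CPM in untreated day 6 libraries. CNN1, calponin, was -6.32 (adjusted p = 6.9e-14) and 5.99 (adjusted p = 1.5e-13) in the 2 comparisons, and MYH11, smooth muscle myosin, -6.54 (adjusted p = 4.1e-12) and 5.14 (adjusted p = 4.5e-11). Of 13 epicardial and fibroblast genes, 2 rose and 7 fell in the first comparison and 6 rose and 4 fell in the second. Their summed level was 342 to 383 CPM in RA-CHIR-BMP4 and 2387 to 3606 CPM in RA day 9 libraries. Of 19 skeletal muscle genes in the table, 12 had no read in RA day 9 libraries. Their sum was 12.3 to 14.4 CPM in RA-CHIR-BMP4, 427 to 809 CPM in RA day 9 and at most 105.5 CPM in the other groups. In RA day 9 it was mostly ACTA1 (601 ± 182 CPM, SD, n = 3). Of 9 endothelial genes, 2 fell in the first comparison and 1 rose and 1 fell in the second. The 12 endoderm genes summed to 4558 to 4911 CPM in RA-CHIR-BMP4, 10110 to 10500 CPM in RA day 9, 9378 to 10670 CPM in RA day 6 and 3090 to 4699 CPM in the remaining groups. Of these 12, 2 rose and 9 fell in the first comparison, and 4 rose and 4 fell in the second. Endothelial counts lay below the shares of all genes, and endoderm counts in the second comparison lay near them. In the first comparison, endoderm genes, like epicardial and fibroblast genes, fell more often than all genes. The part of these other markers in the sarcomere gene differences was not tested.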

How the data were processed

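Bulk RNA-seq of 18 libraries (3 per group, from the TruSeq stranded mRNA kit, per the labels' protocols) was analysed from 2 tables that the authors deposited, raw counts and TPM for each gene. The submitters' processing notes name STAR 2.7.9 and GRCh38. The counting annotation and strand setting were not given in the sources used here, and reads shared by near-identical genes may have been split or dropped. Genes without a symbol (36, holding 0.00102% of counts) were left out.

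Counts were tested with edgeR 4.0.16 (R 4.3.3): trimmed-mean scaling, default filtering at a minimum count of 10, and a robust quasi-likelihood fit with 1 mean per group over all 18 libraries, with Benjamini-Hochberg adjustment over 15531 genes and calls below 0.05. The common dispersion was 0.00724. The scripts were tested on simulated data. Folds against groups with at most 3 counts are ratios of CPM; an empty group was set to 3 counts over the group, and intervals are exact at 95%. Alternatives were other scaling factors, no filter, DESeq2 1.42.0, limma 3.58.1 on log2(TPM + 1), a replicate block, fewer groups, fewer libraries and a covariate for the read kind.

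The 41 genes and the other lists were chosen with earlier results of these data known. Genes reaching a group mean of 10 CPM are given library by library and the others by range or count; from other lists at most 5 called genes with at least 5 CPM are named, and regulators whether called or not. Replicate numbers were checked as pairs: deviations from group means of same-numbered libraries correlated between -0.076 and 0.228, and in no comparison did all 3 exceed the 0.1 required, so the numbers were not used as pairs. Promoters came from RefSeq (GRCh38.p14).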

Additional observations from a re-analysis of the deposited data

Results flagged for a closer look

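The response to RA differed by the step that followed it for 29 of the 38 tested genes. Of all tested genes, 27.9% were called below 0 and 25.5% above 0. Each value is the RA effect on the log2 level with CHIR99021 and BMP4 minus the effect without them, tested as an interaction in edgeR, and each of the 29 is below 0. Of these, 22 are among the 26 genes that pass the abundance filter without RA day 9 libraries, and the others passed only through those libraries and add no support. Of all genes that pass it without them, 27.6% were called below 0. The values of MYH7, UNC45B, HSPB7, MYOZ2 and PLN rest on a day 9 group with at most 3 counts, so their size is uncertain. Among heavy and light chains it was -11.98 for MYH6, -6.41 for MYH7, -4.46 for MYL3, -5.18 for MYL4 and -5.29 for MYL7. In the thin filament it was -5.28 for ACTC1, -2.27 for TNNT1, -4.23 for TNNI1 and -2.16 for TNNC1. In the thick filament and M-band it was -5.38 for TTN and -5.83 for MYOM1, and for the chaperone genes -7.02 for UNC45B and -5.69 for HSPB7. At the Z-disc it was -6.76 for ACTN2, -2.82 for NEBL, -5.46 for LDB3, -6.82 for MYOZ2, -3.58 for DES, -5.86 for XIRP1 and -3.29 for ANKRD1. For the calcium store it was -6.48 for RYR2, -7.74 for PLN and -0.60 for ATP2A2, and for channels -3.29 for CACNA1C, -2.67 for HCN4 and -0.64 for KCNH2. For peptide genes it was -4.15 for NPPB and -7.06 for CORIN, and for the creatine kinase CKMT2 -4.32.

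The calls of 3 values, MYH7, PLN and KCNH2, were lost when 1 library was left out. CHIR-BMP4 replicate 2 held all MYH7 reads of its group, and CHIR-BMP4 replicate 3 all PLN reads. Without that library the group was empty, which left no interaction to evaluate for the gene. KCNH2 was at -0.52 without RA day 9 replicate 3 (adjusted p = 0.054 in edgeR). TCAP was called above 0 without CHIR-BMP4 replicate 1. The untreated day 9 libraries that enter this difference are also those with the other kind of reads, and with that covariate 13 of the 29 were still called, among 7.42% of all tested genes, and DES changed sign.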

How the results depend on the processing

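Values are counts called among the 38 tested genes, of which 12 passed the filter only through RA day 9 libraries. With the read-kind covariate, RA relative to untreated gave 0 higher and 3 lower at day 6 and 14 higher and 0 lower at day 9, CHIR-BMP4 relative to untreated 0 higher and 1 lower, untreated day 9 relative to day 6 gave 1 higher, and the interaction 13 lower. It also reversed DES (-3.52 for RA relative to untreated day 9, adjusted p = 0.6, and 2.43 in the interaction, 0.77), SLN (-7.31 for RA relative to untreated day 9, 0.73) and UNC45B (1.12 for CHIR-BMP4 relative to untreated day 9, 0.9). The covariate moves with these comparisons by construction. With replicate 2 alone in untreated day 6, 1 gene was higher for RA relative to untreated day 6 and 1 for untreated day 9 relative to day 6. DESeq2 called 1 higher for CHIR-BMP4 relative to untreated and 0 higher for RA-CHIR-BMP4 relative to RA day 9. Limma on log2(TPM + 1) called 5 higher for CHIR-BMP4 relative to untreated and 0 lower for RA relative to untreated day 9. Upper quartile scaling called 1 above 0 in the interaction, and a fit on only the compared groups 7 lower for untreated day 9 relative to day 6. For these the cause was not tested.

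Leaving out 1 library at a time gave 2 to 5 higher and 8 to 11 lower for RA relative to untreated day 6 and 32 to 33 higher and 1 to 2 lower for RA relative to untreated day 9. It gave 0 to 4 higher and 6 to 10 lower for CHIR-BMP4 relative to untreated, 2 to 4 higher and 9 to 10 lower for RA-CHIR-BMP4 relative to CHIR-BMP4 and 0 to 1 higher and 35 lower for RA-CHIR-BMP4 relative to RA. Over days it gave 3 higher and 8 to 13 lower for untreated day 9 relative to day 6 and 32 to 33 higher and 0 lower for RA day 9 relative to RA day 6. The interaction was called above 0 for 0 to 1 gene and below 0 for 28 to 29. With a replicate block, RA relative to untreated day 6 gave 4 higher and 9 lower, and no count moved by over 1.5 times.

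The TPM scale moved the median of all tested genes by 0.174, 0.256, 0.206, -0.146 and -0.198 (log2) for RA at day 6, RA at day 9, CHIR-BMP4, untreated day 9 relative to day 6 and the interaction, and the share of calls that were higher to 74.7%, 73.3%, 79.7%, 28.2% and 29.4%, against 51.9%, 50.0%, 49.1%, 51.3% and 47.8%. For RA-CHIR-BMP4 relative to CHIR-BMP4 that share was 62.2%, against 48.9%. Upper quartile scaling moved the median by -0.116, 0.104 and -0.11 for RA relative to untreated day 9, RA-CHIR-BMP4 relative to RA and RA day 9 relative to RA day 6. At 5.79 to 25.37 M counts, genes with few reads in a group, such as PLN, SLN and NPPA, have wide counting intervals.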
